A study of Rattus norvegicus with 325 samples.

Results

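Complement is a cascade of plasma proteins that marks cells, debris and microbes for removal. The measurements described here concern 8 of its transcripts in the ageing rat muscle: C1qa, C1qb and C1qc, C1r and C1s, C2, C3, and Serping1. The genes were chosen by name, and they are 8 of the 17315 gene symbols in the count tables. Male Sprague Dawley rats that received no treatment were studied at 7 ages between 6 and 27 months (with 9, 12, 18, 21 and 24 months in between), and RNA of the diaphragm and of 3 lower limb muscles (gastrocnemius, soleus and tibialis anterior) was sequenced from whole tissue. There were 325 libraries, with 9 to 13 for each muscle and age, and their totals, in M counts, ran from 17.6 to 85.3 (median 31.9). Each of the 8 transcripts had enough counts to be tested in every muscle.

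The classical pathway of complement begins when C1q, a hexamer built from the chains encoded by C1qa, C1qb and C1qc, binds its target. C1q then activates the serine proteases C1r and C1s, and C1s cleaves C4 and C2 into the enzyme that splits C3, the step where all complement pathways meet. Serping1 encodes the C1 inhibitor, which blocks C1r and C1s. Most plasma complement is made in the liver, but C1q is largely a product of tissue macrophages, and C1r, C1s, C2, C3 and the C1 inhibitor are also made by fibroblasts, macrophages and other cells of many tissues.

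Levels are given in CPM, the counts of a transcript relative to those of its whole library, scaled between the libraries of a muscle by trimmed mean of M values (TMM), or as log2 CPM. Levels of different genes are not compared with each other because CPM does not correct for transcript length. A change is the log2 difference from 6 months in limma-voom, with its standard error (SE). A gene was called when its Benjamini-Hochberg adjusted p over all genes tested was under 0.05 and its change was over 1.5-fold.

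The soleus and the tibialis anterior carried the myosin transcripts of their labels. At 6 months the median of Myh7, the slow myosin, was 52939 CPM in the soleus and 1801 CPM in the tibialis anterior, and that of Myh4, the fastest myosin of these muscles, was 9.38 and 76450 CPM. All tissues of an age group were taken on a single day, and so age cannot be told apart from the day of collection. The running numbers of the libraries fell into 3 series, with the gastrocnemius in a series of its own and the 12-month libraries of the other muscles, with 1 library each at 21 months, in another, and so these groups cannot be told apart from their series. In RNA of whole tissue, a change in the number of cells of a type cannot be told apart from a change in RNA per cell.

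At 27 months 7 of the 8 transcripts were called higher than at 6 months in both the tibialis anterior and the gastrocnemius, against 4 of them for the soleus and 0 for the diaphragm. Over all genes tested, the share called higher was 17.2% for the tibialis anterior, 15.1% for the gastrocnemius, 9.21% for the soleus and 3.27% for the diaphragm. The median change of the 8 transcripts was 1.46 (tibialis anterior), 0.86 (gastrocnemius), 0.59 (soleus) and 0.31 (diaphragm), where the median of all genes tested lay between 0.00 and 0.04 in every muscle. C1r was the transcript not called in the tibialis anterior and the gastrocnemius. The count of 0 in the diaphragm came from limma-voom, edgeR and DESeq2 alike, with 6, 5 and 5 transcripts at an unadjusted p under 0.05, and 4 passed the adjusted p in limma-voom without reaching 1.5-fold.

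**Figure D1:**
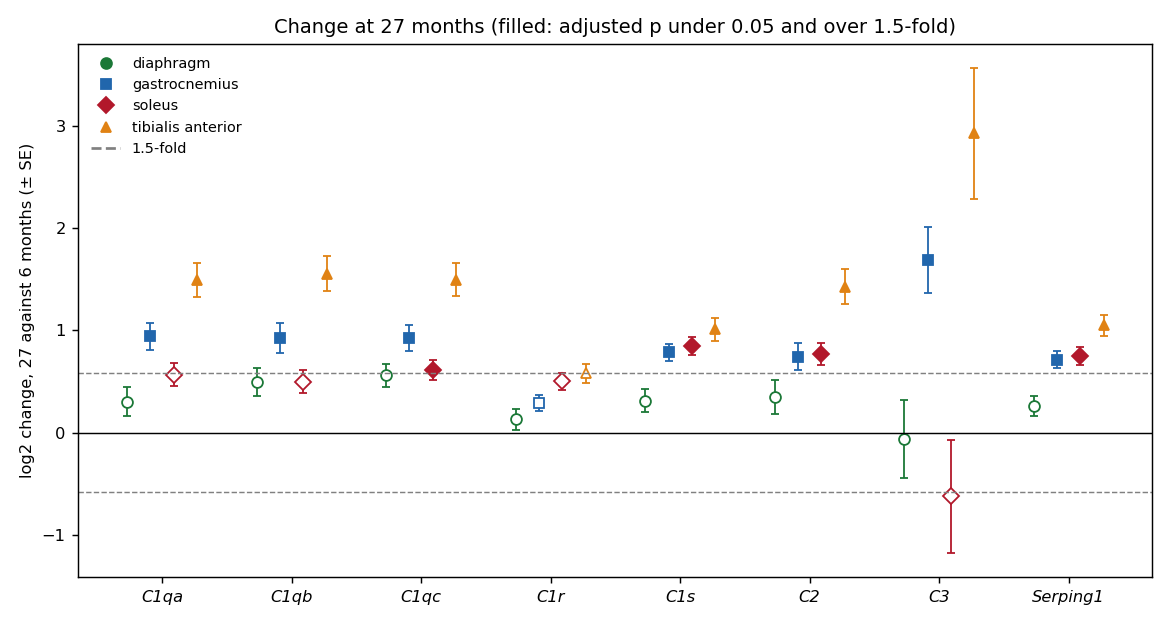
Change from 6 to 27 months of each transcript in each muscle, as log2 change ± SE from limma-voom (vertical axis). Filled symbols were called and dashed lines mark 1.5-fold. The tibialis anterior has the highest symbol for each of the 8 transcripts, and no symbol of the diaphragm is filled.

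The 3 chains of C1q rose together in the tibialis anterior. C1qa lay between 2.93 and 5.63 CPM at 6 months (median 4.42, n = 12) and between 7.92 and 19.7 CPM at 27 months (median 12.6, n = 12). C1qb went from 2.79 to 5.01 CPM (median 4.39) to 7.67 to 21.0 CPM (median 12.0), and C1qc from 3.97 to 10.04 CPM (median 7.03) to 12.2 to 30.0 CPM (median 20.3). For each chain every library at 27 months was above every library at 6 months. The changes were 1.49 ± 0.17 for C1qa (adjusted p = 1.41e-12), 1.56 ± 0.17 for C1qb (adjusted p = 5.23e-13) and 1.497 ± 0.16 for C1qc (adjusted p = 2.3e-13), or 2.82-fold to 2.94-fold.

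In the gastrocnemius the same chains were called higher as well. C1qa went from a median of 12.0 CPM (8.76 to 16.6, n = 10) to 21.9 CPM (15.7 to 35.0, n = 11), and C1qc from 17.2 CPM (14.1 to 23.0) to 33.4 CPM (25.8 to 49.9). The age groups did not overlap for C1qc, and for C1qa and C1qb 10 and 9 of the 11 old libraries lay above the highest young library. Their changes were 0.94 ± 0.13 for C1qa, 0.93 ± 0.15 for C1qb and 0.93 ± 0.13 for C1qc.

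In the soleus, C1qc was the chain past both thresholds, with a median of 33.3 CPM (26.7 to 45.4) at 6 months and 49.1 CPM (42.8 to 69.4) at 27 months. Its change was 0.61 ± 0.10 (adjusted p = 1.35e-07), and those of C1qa and C1qb, 0.56 ± 0.11 and 0.50 ± 0.11, passed the adjusted p but not 1.5-fold. All 12 old soleus libraries lay above the young median for each chain. In the diaphragm the C1qc median was 27.99 CPM (19.7 to 34.9) at 6 months and 40.6 CPM (33.9 to 54.7) at 27 months, with 10 of 12 old libraries above the highest young library. The change of 0.56 ± 0.11 (adjusted p = 3.15e-05) stayed under 1.5-fold, as did that of C1qb at 0.49 ± 0.14 (adjusted p = 0.00189), and C1qa did not pass the test there (0.30 ± 0.14, adjusted p = 0.0727).

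The balance between the chains was measured as a log2 ratio within each library, where scaling between libraries cancels. C1qb relative to C1qc changed from 6 to 27 months by -0.08 (diaphragm), 0.01 (gastrocnemius), -0.11 (soleus) and 0.06 (tibialis anterior). These shifts were smaller than the SD of the ratio between libraries of an age group, which ran from 0.12 to 0.31. From 6 to 27 months C1qa relative to C1qc fell by 0.26 in the diaphragm, from -1.198 ± 0.19 (SD, n = 12) to -1.46 ± 0.09, and moved by 0.04 or less elsewhere. The ratio was not steady between these ages. At 12 months it was -1.58 ± 0.19 in the diaphragm, and -1.21 ± 0.14 there at 24 months. In the soleus it was -1.25 ± 0.14 at 6 and -1.62 ± 0.18 at 12 months, and in the tibialis anterior -0.69 ± 0.27 and -0.995 ± 0.23. The gastrocnemius gave -0.55 ± 0.10 and -0.47 ± 0.13.

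**Figure D2:**
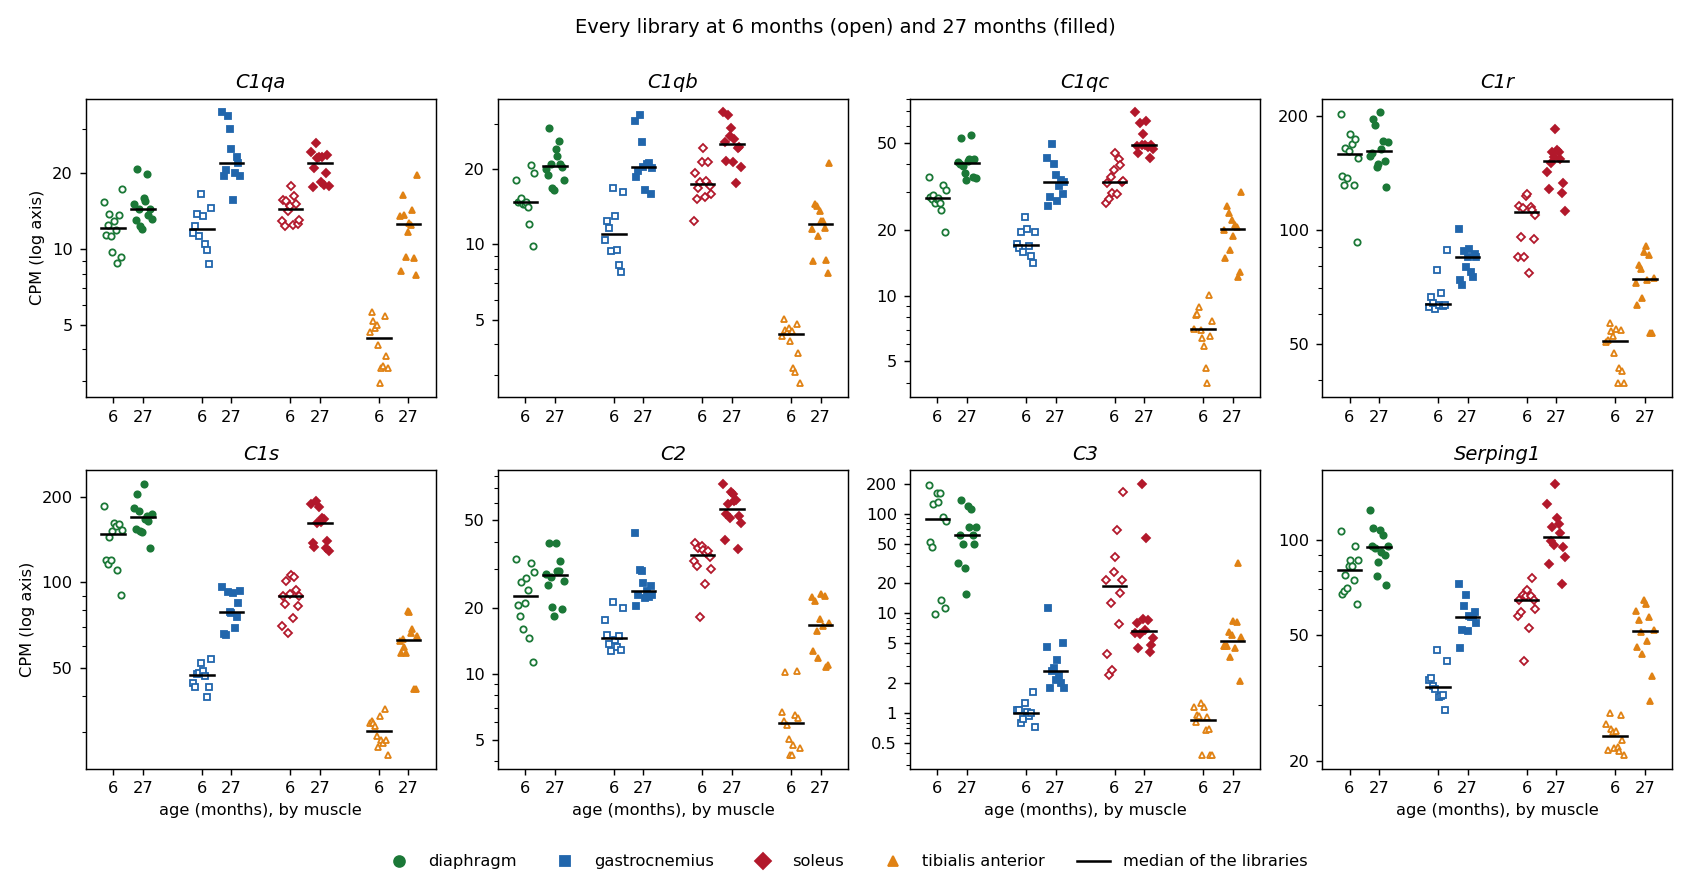
CPM of each transcript (vertical log axes, different in each panel) in every library at 6 months (open) and 27 months (filled), by muscle along the horizontal axis, with the median as a black line. The age groups of the tibialis anterior are separate for every transcript but C1r, while those of the diaphragm overlap for all 8.

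C1qa, C1qb and C1qc lie in a row on chromosome 5 of the rat, in the order C1qb, C1qc, C1qa, and C1r and C1s are neighbours on chromosome 4. C2 lies beside Cfb, its alternative pathway counterpart, on chromosome 20. RefSeq promoter sequences (build GRCr8, which is later than the build behind the counts) were at hand for 4 of the 8 genes, C1qa, C1qb, C1r and C3. The promoter of C1r is not printed. Like that of C3 it held a match to the C/EBP letters given below, on the opposite strand and 83 bases before the gene. The C/EBP letters therefore do not set C3 apart. The letters of an interferon response motif (ISRE), held by 3.41% of rat promoters, were also searched and had no match in these 4 promoters. The 250 bases before the start of C1qa, C1qb and C3 are shown because the C1q chains moved together while C3 followed a course of its own. They are printed 5′ to 3′ on the strand of the gene, at chr5:154419934-154420183 (minus strand), chr5:154407828-154408077 (minus strand) and chr9:2201340-2201589 (minus strand). Capitals mark matches on either strand to GGAAGT (an ETS core), TTCNNNGAA or TTGCNNAA (C/EBP), letters that were chosen after the sequences had been read.
C1qa: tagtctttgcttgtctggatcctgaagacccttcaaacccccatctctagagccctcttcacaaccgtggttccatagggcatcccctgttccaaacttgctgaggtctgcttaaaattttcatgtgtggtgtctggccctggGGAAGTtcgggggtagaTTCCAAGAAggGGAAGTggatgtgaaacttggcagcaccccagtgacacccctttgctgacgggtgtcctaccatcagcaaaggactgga
C1qb: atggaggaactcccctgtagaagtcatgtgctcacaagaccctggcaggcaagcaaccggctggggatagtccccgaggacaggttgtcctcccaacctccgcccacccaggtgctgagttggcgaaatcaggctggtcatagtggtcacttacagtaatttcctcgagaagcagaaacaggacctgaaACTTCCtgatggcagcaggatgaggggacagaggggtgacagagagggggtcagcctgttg
C3: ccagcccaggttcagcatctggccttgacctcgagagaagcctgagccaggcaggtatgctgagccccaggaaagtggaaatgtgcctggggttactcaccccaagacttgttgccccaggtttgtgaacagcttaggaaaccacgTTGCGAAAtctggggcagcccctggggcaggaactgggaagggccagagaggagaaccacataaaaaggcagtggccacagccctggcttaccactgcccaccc
C1qa held 2 matches to GGAAGT, which start 107 and 79 bases before the gene, and the letters TTCCAAGAA, a match to TTCNNNGAA, which start 90 bases before it. C1qb held the ETS letters once on the opposite strand, 61 bases before the gene, and C3 held a C/EBP match, TTGCGAAA, at 104 bases. Of 33469 rat promoters of the same length, 19.2% held the ETS letters, 7.67% the letters TTCNNNGAA and 9.22% the C/EBP letters, and no binding was measured here.

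C1s, the protease that cleaves C4 and C2, was called higher in each limb muscle. In the tibialis anterior its median rose from 30.3 CPM (24.9 to 36.0) to 62.9 CPM (42.2 to 79.5), in the soleus from 89.6 CPM (66.3 to 106) to 162 CPM (128 to 192), and in the gastrocnemius from 47.3 CPM (39.7 to 54.1) to 78.6 CPM (65.5 to 96.7). In each of these muscles every library at 27 months was above every library at 6 months. The changes were 1.01 ± 0.11 (adjusted p = 5.35e-13), 0.84 ± 0.09 (adjusted p = 1.53e-13) and 0.78 ± 0.09 (adjusted p = 3.6e-12). In the diaphragm, where the young median was 148 CPM (90.1 to 185) and the old 169 CPM (132 to 221), the change was 0.31 ± 0.11 (adjusted p = 0.0191) and the groups overlapped.

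C1r, which cleaves and activates C1s, changed less than C1s in each muscle. Its median in the tibialis anterior went from 50.7 CPM (39.3 to 56.6) to 74.2 CPM (53.3 to 90.4), a change of 0.58 ± 0.10 (adjusted p = 1.69e-07) just under 1.5-fold. The changes in the soleus (0.50 ± 0.08) and the gastrocnemius (0.29 ± 0.08) also passed the adjusted p without reaching 1.5-fold, and that in the diaphragm (0.13 ± 0.10, adjusted p = 0.314) did not pass. In the tibialis anterior edgeR and DESeq2 gave C1r 0.59 and called it.

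Within single libraries C1s gained on C1r. The log2 ratio of C1s to C1r went from -0.68 ± 0.11 (SD, n = 12) to -0.25 ± 0.09 in the tibialis anterior, and from -0.53 ± 0.12 (n = 10) to -0.03 ± 0.10 (n = 11) in the gastrocnemius. In the soleus it went from -0.24 ± 0.11 to 0.10 ± 0.15, and in the diaphragm from -0.14 ± 0.07 to 0.04 ± 0.08. The shift was larger than either SD in all 4 muscles, the diaphragm included. From 6 to 27 months the ratio of Serping1 to C1s, in contrast, moved by no more than 0.10 in any muscle. This shift was less than the SD of the ratio between libraries. At 18 months the ratio was lower than at either of these ages in all 4 muscles. It went from -0.50 ± 0.13 at 6 to -0.69 ± 0.11 at 18 months in the soleus, with -0.77 ± 0.19 at 21 months. The tibialis anterior gave -0.33 ± 0.11 at 6 and -0.54 ± 0.16 at 18 months. The diaphragm gave -0.78 ± 0.13 and -0.97 ± 0.15, and the gastrocnemius -0.42 ± 0.15 and -0.59 ± 0.19.

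C2, which joins C4b to form the C3-cleaving enzyme, was called higher in the 3 limb muscles. Its median in the tibialis anterior rose from 5.94 CPM (4.25 to 10.3) to 16.7 CPM (10.7 to 23.0), with no overlap, and in the soleus from 34.8 CPM (18.2 to 39.6) to 56.6 CPM (37.1 to 73.2). The change was 1.43 ± 0.17 in the tibialis anterior (adjusted p = 1.13e-11). The soleus gave 0.77 ± 0.11 (adjusted p = 4.49e-09), and the gastrocnemius, with medians of 14.5 CPM (12.7 to 21.3) and 23.7 CPM (20.4 to 43.6), gave 0.74 ± 0.13 (adjusted p = 1.88e-06). The diaphragm overlapped widely, at 22.6 CPM (11.3 to 33.2) and 28.04 CPM (18.3 to 39.6), and its change of 0.35 ± 0.16 did not pass (adjusted p = 0.0732).

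Serping1, the inhibitor of C1r and C1s, was called higher in the same 3 muscles. The median rose from 23.9 CPM (20.8 to 28.3) to 51.5 CPM (31.0 to 64.4) in the tibialis anterior, from 64.7 CPM (41.3 to 76.1) to 103 CPM (72.6 to 151) in the soleus, and from 34.2 CPM (28.9 to 44.8) to 57.1 CPM (45.6 to 72.8) in the gastrocnemius. The groups were separate in the tibialis anterior and the gastrocnemius, and 11 of 12 old soleus libraries lay above the highest young library. The changes were 1.05 ± 0.10 (adjusted p = 6.83e-15), 0.75 ± 0.09 (adjusted p = 3.42e-11) and 0.71 ± 0.08 (adjusted p = 2.9e-11). The diaphragm passed the adjusted p at 0.26 ± 0.10 (adjusted p = 0.029) but not 1.5-fold.

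Counted over the transcripts, the groups at 6 and 27 months did not overlap for 7 of 8 in the tibialis anterior, 4 of 8 in the gastrocnemius, 1 of 8 in the soleus (C1s) and 0 of 8 in the diaphragm. The share of all genes tested whose lowest library at 27 months was above the highest at 6 months was 9.57%, 6.88%, 2.46% and 1.06% in these muscles.

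C3, the central protein of the cascade, had the largest rise and the largest spread. In the tibialis anterior its median went from 0.858 CPM (0.379 to 1.26) to 5.30 CPM (2.09 to 31.9), with no overlap and a change of 2.93 ± 0.64 (adjusted p = 3.53e-05). In the gastrocnemius it went from 1.01 CPM (0.724 to 1.64) to 2.63 CPM (1.77 to 11.3), also with no overlap, and the change was 1.69 ± 0.32 (adjusted p = 7.1e-06). The young levels are low, with 10 to 60 counts in a library of the tibialis anterior and 23 to 81 in the gastrocnemius. In the soleus C3 lay between 2.38 and 166 CPM at 6 months (median 18.7) and between 4.06 and 199 CPM at 27 months (median 6.59), and its change was -0.62 ± 0.55 (adjusted p = 0.35). In the diaphragm it lay between 9.77 and 194 CPM (median 88.1) and between 15.8 and 139 CPM (median 61.5), and its change was -0.07 ± 0.38 (adjusted p = 0.907).

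The libraries highest in C3 in each limb muscle at 27 months, and those of the soleus at 6 months, also carried transcripts of the liver. Alb, which encodes the albumin of plasma and defines the liver list, lay between 4.24 and 1356 CPM over the soleus libraries at 6 months (median 89.0), and 9 of 12 were over 10 CPM. Over these 12 libraries C3 followed Alb with Pearson's r = 0.995 (permutation p = 1e-05, adjusted p = 8e-05) and Spearman's rho = 0.993 (permutation p = 1e-05, adjusted p = 0.00016), and r was 0.996 without the 2 libraries farthest from the median of Alb. These permutation p-values are the smallest that 100000 draws can give, and the adjustment covers 16 relations. At 27 months 2 soleus libraries, with 199 and 56.9 CPM of C3, had 1988 and 434 CPM of Alb, and the other 10 had 4.06 to 8.86 CPM of C3 with 0.572 to 6.44 CPM of Alb. The highest old library of the tibialis anterior (31.9 CPM of C3) and of the gastrocnemius (11.3 CPM) had 319 and 108 CPM of Alb.

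Without the libraries over 10 CPM of Alb, a limit chosen after the data had been seen, C3 was called higher in the soleus as well. There 3 young libraries (2.38 to 3.87 CPM) and 10 old libraries remained, and the change turned to 1.10 ± 0.36 (adjusted p = 0.0191). The changes in the tibialis anterior, 2.74 ± 0.28 (adjusted p = 1.12e-13), and the gastrocnemius, 1.41 ± 0.20 (adjusted p = 6.69e-09), were close to those with every library. At 18 months, where 8 of 12 libraries of the tibialis anterior were over the limit, the C3 change there was 2.84 ± 0.64 with them and 1.58 ± 0.38 without them (adjusted p = 0.00332). The part of liver RNA in the C3 of the libraries kept was not tested.

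In the diaphragm the r between C3 and Alb was 0.234 at 6 months (permutation p = 0.479). C3 followed there the sum of 6 markers of the mesothelium, the cell layer that covers the diaphragm, among them Msln (mesothelin), Upk1b, Wt1 and the keratins Krt8 and Krt18. Over the 12 young libraries r was 0.979 (permutation p = 1e-05, adjusted p = 8e-05) and rho 0.958 (permutation p = 2e-05, adjusted p = 0.00016), and r was 0.956 without the 2 farthest libraries. Over the 12 old libraries r was 0.802 (permutation p = 0.00183, adjusted p = 0.00756) and rho 0.755 (permutation p = 0.00663, adjusted p = 0.0334), and r was 0.743 without the 2 farthest. The soleus at 6 months also gave a relation to this sum, with r = 0.752 (permutation p = 0.00497, adjusted p = 0.0159) and rho = 0.734 (permutation p = 0.00836, adjusted p = 0.0334), which fell to r = 0.467 without the 2 farthest libraries. The sum ran from 0.931 to 3.06 CPM over those 12 soleus libraries. In the diaphragm the summed markers ran from 12.8 to 110 CPM at 6 months and from 9.77 to 106 CPM at 27 months. Wt1 was at 0 in all 12 libraries of the tibialis anterior and all 10 of the gastrocnemius at 6 months. The same sum reached 39.6 CPM in a tibialis anterior library at 27 months, within the range of the diaphragm. The part of the keratins in the relation to C3 was not tested. The list was put together after the data had been seen, and how much mesothelium each piece of diaphragm held is not in the labels.

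**Figure D3:**
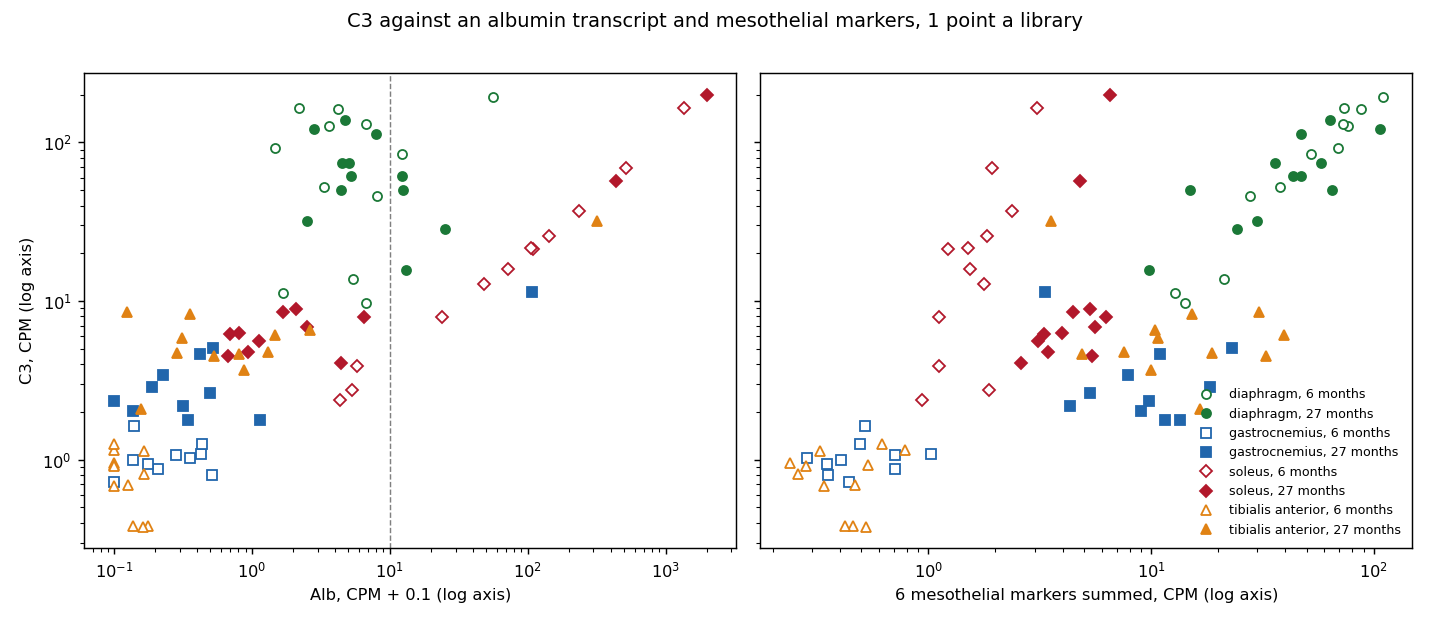
C3 (vertical log axis, CPM) against Alb (left, log axis, 0.1 CPM added, dashed line at the limit of 10 CPM) and against 6 mesothelial markers summed (right, log axis, CPM), with open symbols for 6 months and filled ones for 27 months. Soleus libraries climb along Alb up to 199 CPM of C3, and diaphragm libraries climb along the mesothelial sum.

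The time courses were compared next, each age against 6 months. In the tibialis anterior 0 transcripts were called higher at 9 months, 0 at 12, 6 at 18, 2 at 21, and 7 each at 24 and 27 months, where 0.00851%, 0.145%, 4.11%, 5.5%, 10.9% and 17.2% of all genes tested were called higher. In the gastrocnemius the numbers were 0, 0, 4, 1, 3 and 7, beside 0.101%, 0.489%, 3.63%, 4.27%, 11.4% and 15.1%. In the soleus they were 0, 0, 0, 0, 0 and 4, beside 0.0493%, 0.23%, 1.66%, 1.41%, 3.87% and 9.21%. In the diaphragm they were 0 at each age, beside 0.0748%, 0.307%, 1.62%, 1.12%, 2.19% and 3.27%. The counts of 0 are those of limma-voom, edgeR and DESeq2. At an unadjusted p under 0.05 limma-voom gave 4 and 0 transcripts at 9 and 12 months in the tibialis anterior, 3 and 0 in the gastrocnemius, 4, 2, 5, 4 and 7 from 9 to 24 months in the soleus, and 1, 0, 5, 2, 4 and 6 from 9 to 27 months in the diaphragm.

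Without the libraries over 10 CPM of Alb, the 6 calls at 18 months in the tibialis anterior became 2 (C2 and C3), with 4 of 12 libraries left at that age, and the 2 calls at 21 months became 3. The counts at 24 and 27 months there were 7 and 8 without them. In the soleus the calls became 1 at 21 months (C1s), 2 at 24 months (C1s and C2) and 6 at 27 months (with C1qa and C3 added). In the diaphragm they became 1 at 18 months (C2) and 2 at 27 months (C1qb and C1qc), and the gastrocnemius had 2 in place of 3 at 24 months. At 6 months the soleus kept 3 of 12 libraries and the diaphragm 10 of 12. The shares of all genes given above are those with every library, so these counts have no such share beside them.

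Limma-voom called a single transcript lower at any age, C3 in the soleus at 24 months (-1.96 ± 0.77, adjusted p = 0.0436), where 2.64% of genes were called lower. At that age all 12 soleus libraries had under 10 CPM of Alb and C3 lay between 1.68 and 7.82 CPM, against 9 of 12 young libraries over 10 CPM of Alb. Without the libraries over that limit the change was 0.39 ± 0.38 (adjusted p = 0.557). edgeR and DESeq2 also called 1 transcript lower in the soleus at 9 months, an age with all 12 libraries under 10 CPM of Alb.

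All 3 chains of C1q were called higher at 18 months in the tibialis anterior and the gastrocnemius. Some chains passed the adjusted p at that age in the other muscles without reaching 1.5-fold. These were C1qb (0.38 ± 0.14, adjusted p = 0.0333) and C1qc (0.43 ± 0.11, adjusted p = 0.00389) in the diaphragm. In the soleus, where 1 of 12 libraries was within 10 CPM of Alb, they were C1qa (0.35 ± 0.12, adjusted p = 0.0178) and C1qc (0.28 ± 0.10, adjusted p = 0.0318). In the tibialis anterior C1qa was 0.83 ± 0.18 (adjusted p = 0.000157) above 6 months at 18 months, 0.41 ± 0.18 (adjusted p = 0.0779) at 21 months and 0.73 ± 0.18 (adjusted p = 0.000319) at 24 months. Its value at 18 months was 0.57 ± 0.24 (adjusted p = 0.115) without the libraries over 10 CPM of Alb. C1qb and C1qc did not pass there without those libraries either (adjusted p = 0.198 and 0.132). For C1qa the gastrocnemius gave 0.70 ± 0.13, 0.30 ± 0.14 and 0.52 ± 0.14 at 18, 21 and 24 months with every library. In both muscles the value at 21 months lay under those at 18 and 24 months for all 3 chains with every library, and the difference between 18 and 21 months was not tested. In the tibialis anterior this order did not hold without the libraries over 10 CPM of Alb for C1qb (0.51 ± 0.26 at 18 and 0.59 ± 0.19 at 21 months) and C1qc (0.53 ± 0.23 and 0.55 ± 0.17).

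Serping1 passed the adjusted p at 18 months in the tibialis anterior (0.40 ± 0.11, adjusted p = 0.00211) and the gastrocnemius (0.34 ± 0.08, adjusted p = 0.00288) without reaching 1.5-fold. Without the libraries over 10 CPM of Alb it did not pass in the tibialis anterior at that age (0.30 ± 0.14, adjusted p = 0.172). In the gastrocnemius it still did (0.33 ± 0.08, adjusted p = 0.00258). With every library Serping1 passed both thresholds in the tibialis anterior at 24 months (0.62 ± 0.10) and in the soleus and the gastrocnemius at 27 months. Its timing was not tested against that of C1q.

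**Figure D4:**
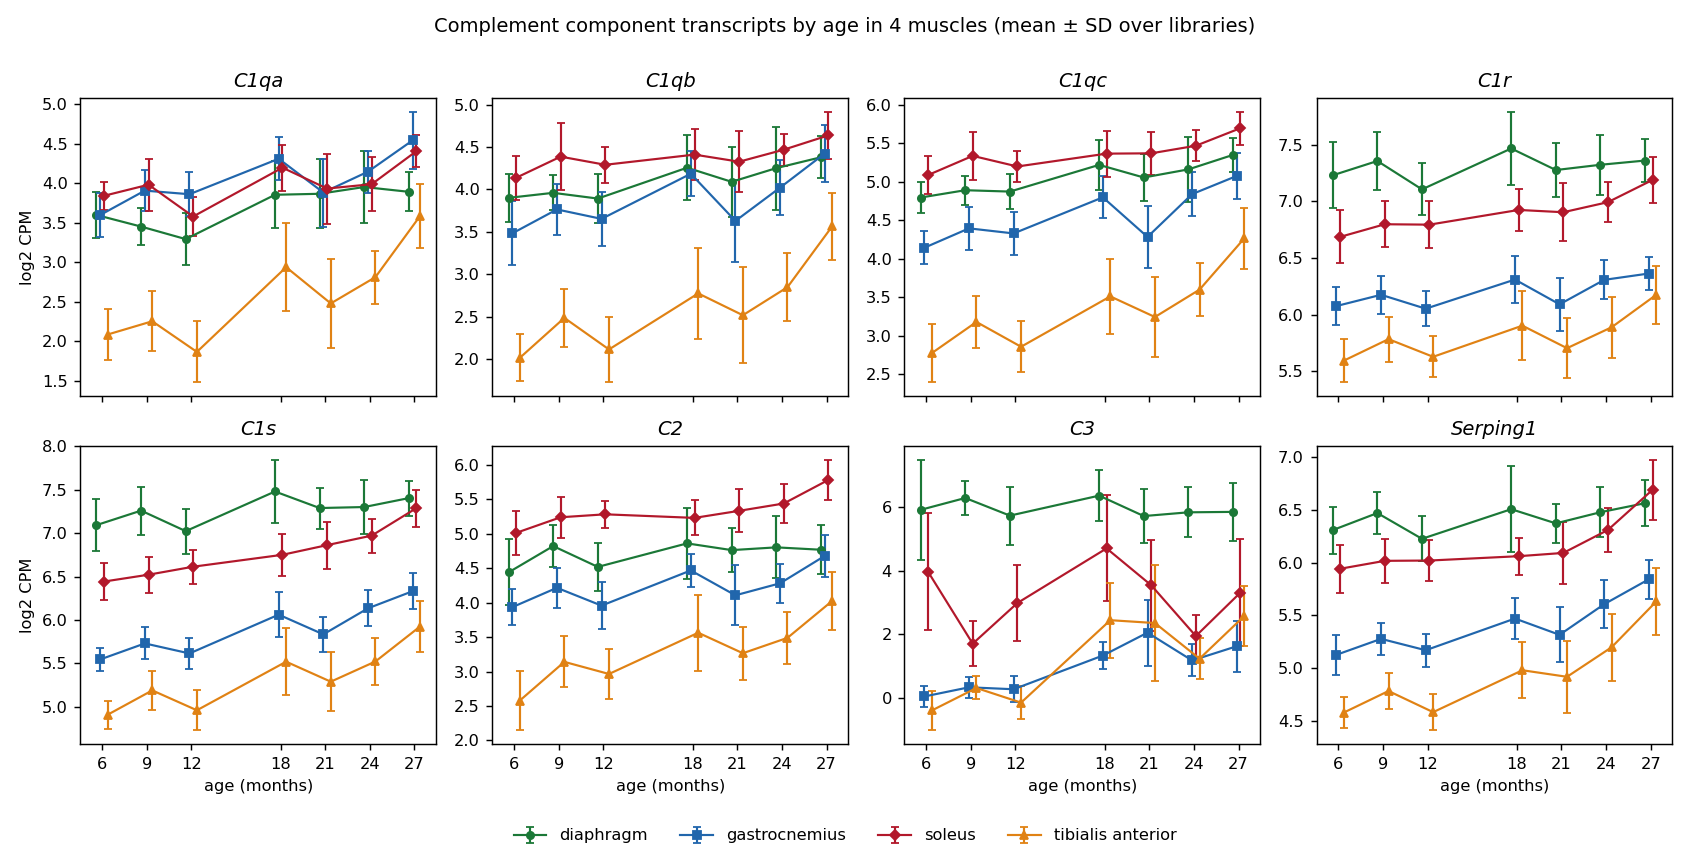
Level of each transcript (vertical axes, mean log2 CPM ± SD over 9 to 13 libraries) against age in months, with a line for each muscle, points set slightly apart, and levels scaled within each muscle so that heights are not compared between lines. The C1q lines of the tibialis anterior climb most, and the SD of C3 is wide in the soleus.

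The shape of each course was described by the Bayesian information criterion (BIC) of a flat, a straight and a logistic curve, with no test. Of the 32 combinations of transcript and muscle, 26 were classed as rising and 6 as without a trend. C1qa, C1qb and C1qc were straight rises in all 4 muscles, with slopes for C1qc of 0.055 (tibialis anterior), 0.036 (gastrocnemius), 0.022 (soleus) and 0.024 (diaphragm) log2 units a month. Serping1 followed a late logistic curve in the soleus (inflection at 25 months) and the tibialis anterior (26 months), and C3 a mid-life logistic curve in the gastrocnemius (17.25 months) and the tibialis anterior (14.5 months). The courses without a trend were those of C1r, C1s, C2, C3 and Serping1 in the diaphragm and of C3 in the soleus. All curves used every library and were not fitted without those over 10 CPM of Alb. Leaving these out lowered the C3 change at 21 months from 2.57 ± 0.64 to 1.62 ± 0.30 in the tibialis anterior. In the gastrocnemius it went from 1.98 ± 0.32 to 1.30 ± 0.22.

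Whether the change differed between muscles was tested directly, by the interaction of muscle and age in a fit over all muscles. Of 48 tests (8 transcripts in 6 pairs of muscles), 15 were called. Between the tibialis anterior and the diaphragm 7 of 8 were called, all but C1r, against 20.3% of genes. Between the tibialis anterior and the soleus 5 were called (C1qa, C1qb, C1qc, C2 and C3), against 15.8%, and between the tibialis anterior and the gastrocnemius 2 (C1qb and C2), against 7.32%. Between the gastrocnemius and the diaphragm 1 was called (C1qa), against 21.6%. No transcript was called between the soleus and the diaphragm, against 11.9%, or between the soleus and the gastrocnemius, against 14.5%, although 3 of 8 had an unadjusted p under 0.05 in each of these pairs in limma-voom, and edgeR called 0 and 1.

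The largest of these differences among the C1q chains was that of C1qa between the tibialis anterior and the diaphragm, 1.14 ± 0.22 (adjusted p = 1.95e-06). That of C1qb between the tibialis anterior and the soleus was 1.07 ± 0.22 (adjusted p = 1.46e-05). The change in C3 was 3.58 ± 1.04 higher in the tibialis anterior than in the soleus (adjusted p = 0.00289). Without the libraries over 10 CPM of Alb this last difference was 1.69 ± 0.85 and not called (adjusted p = 0.137), while that of C3 between the tibialis anterior and the diaphragm stayed called at 2.17 ± 0.60 (adjusted p = 0.00167). For C1s the difference between the soleus and the gastrocnemius was 0.05 ± 0.15, and for Serping1 0.03 ± 0.14.

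The muscles already differed at 6 months, with 31 of 48 contrasts called. The tibialis anterior was lower than the diaphragm for 8 of 8 transcripts (35.1% of genes were called in either direction), lower than the soleus for 8 of 8 (42.9%), and lower than the gastrocnemius for 5 of 8 (17.3%). The soleus was above the gastrocnemius for 3 (C1qc, C2 and C3, with 45.4% of genes called). The gastrocnemius was below the diaphragm for 4 (37.3%), and of the soleus and the diaphragm the soleus was higher for 1 and lower for 2 (23.9%). Without the libraries over 10 CPM of Alb, which leaves 3 young soleus libraries, 26 contrasts were called. Of the 3 between the soleus and the gastrocnemius none was called then (C1qc 0.45 ± 0.19, C2 0.58 ± 0.21 and C3 1.21 ± 0.77), and between the tibialis anterior and the soleus C3 was not called (-1.60 ± 0.78, adjusted p = 0.0664). The call of C2 between the soleus and the diaphragm was lost as well (0.52 ± 0.21). The shares of genes given here are those with every library, so the 26 contrasts have no such share beside them. C1qc was -1.95 ± 0.14 in the tibialis anterior relative to the soleus (adjusted p = 4.42e-32), C1s -1.82 ± 0.10 relative to the diaphragm (adjusted p = 1.45e-46), and C2 -2.06 ± 0.17 relative to the soleus (adjusted p = 3.03e-27).

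The order of the muscles for C1qc at 6 months was soleus, diaphragm, gastrocnemius and tibialis anterior. The soleus and the diaphragm differed by 0.32 ± 0.12 and the diaphragm and the gastrocnemius by 0.31 ± 0.13, under 1.5-fold, while the gastrocnemius stood 1.33 ± 0.15 above the tibialis anterior. For C1r, C1s and Serping1 the order was diaphragm, soleus, gastrocnemius and tibialis anterior. Between its neighbours C1s differed by 0.64 ± 0.10, 0.58 ± 0.11 and 0.60 ± 0.11, and Serping1 by 0.35 ± 0.09, 0.50 ± 0.10 and 0.51 ± 0.11. For C3 the diaphragm stood highest, 1.98 ± 0.36 above the soleus with all libraries and 4.13 ± 0.61 above it without those over 10 CPM of Alb. The gastrocnemius and the tibialis anterior did not differ in C3 beyond their error (-0.38 ± 1.22, adjusted p = 0.827).

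At 27 months 23 of the 48 contrasts between muscles were called. The tibialis anterior was below the soleus for 6 of 8 (31.7% of genes), below the diaphragm for 5 (27.4%) and below the gastrocnemius for 4 (10.4%). The gastrocnemius differed from the diaphragm for 4 (32.3%), and the soleus from the diaphragm for 2 (27.9%) and from the gastrocnemius for 2 (34%). C1qa no longer separated the tibialis anterior from the diaphragm, with 0.04 ± 0.13 (adjusted p = 0.819) against -1.11 ± 0.17 at 6 months. The distance between the highest and the lowest of the 4 muscle means was smaller at 27 than at 6 months for all 8 transcripts, going from 1.96 to 1.07 for C1qc, from 1.77 to 0.82 for C1qb, from 1.82 to 1.16 for C1s and from 1.36 to 0.70 for Serping1 (log2 CPM). This distance is a description and was not tested.

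The rest of the complement system was read from a list of 43 other genes. At 27 months 16 of 30 tested were called higher and 4 lower in the tibialis anterior (10.4% of all genes were called lower), 12 of 29 and 3 in the gastrocnemius (7.76%), 10 of 36 and 4 in the soleus (5.78%), and 3 of 31 and 1 in the diaphragm (4.25%). The median changes of the list were 0.66, 0.57, 0.19 and 0.20. By role, the initiation genes of the classical and lectin pathways were called higher for 4 of 6 in the tibialis anterior, 2 of 6 in the gastrocnemius, 3 of 7 in the soleus and 1 of 6 in the diaphragm, with 1 lower in each limb muscle, and the terminal genes for 1 of 2, 1 of 2, 1 of 5 (with 2 lower) and 0 of 2. The 2 terminal genes called lower in the soleus were tested in no other muscle, and not there without libraries over 10 CPM of Alb. The initiation gene called lower in the soleus was also tested in no other muscle. Without those libraries its change was -1.10 ± 0.76 and not called (adjusted p = 0.287). The alternative pathway genes were called higher for 3 of 3 in the tibialis anterior and the soleus, 1 of 3 in the gastrocnemius and 0 of 3 in the diaphragm, and the receptors for 5 of 6 in the tibialis anterior and in the gastrocnemius, 2 of 6 in the soleus and 2 of 7 in the diaphragm, where 1 was lower. The regulators were mixed, with 3 higher and 3 lower of 13 in the tibialis anterior, 3 and 2 of 12 in the gastrocnemius, 1 and 1 of 15 in the soleus and 0 of 13 in the diaphragm.

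C4a and C4b, which encode C4, the other target of C1s, held the largest called rise in each muscle. C4a changed by 2.45 ± 0.21 (adjusted p = 4.19e-18) in the tibialis anterior, 1.66 ± 0.18 in the gastrocnemius, 1.497 ± 0.14 in the soleus and 0.09 ± 0.29 (adjusted p = 0.831) in the diaphragm. C4b was called in all 4 muscles, at 1.95 ± 0.19, 1.202 ± 0.17, 1.42 ± 0.15 and 0.75 ± 0.19 in the same order. These genes are near-identical copies, and how the counting divided their reads is uncertain. Itgb2, the beta chain of complement receptor 3, was also called higher in all 4 muscles (1.34 ± 0.19 in the tibialis anterior and 0.64 ± 0.23 in the diaphragm), and its partner Itgam in all but the soleus (0.54 ± 0.18 there).

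In the 3 limb muscles Cfd, the factor D protease of the alternative pathway, was called higher at 1.58 ± 0.17 in the tibialis anterior, 1.08 ± 0.16 in the soleus and 0.96 ± 0.18 in the gastrocnemius. C5ar2, a receptor for C5a, was called at 0.62 ± 0.29, 0.88 ± 0.35 and 0.64 ± 0.23 in these muscles. The largest falls were those of Susd4, a membrane-bound complement inhibitor, in the gastrocnemius (-1.64 ± 0.21) and the tibialis anterior (-1.37 ± 0.30), Cd93 in the diaphragm (-0.68 ± 0.07) and C9, the pore-forming component, in the soleus (-3.50 ± 1.498, adjusted p = 0.0421). C9 had enough counts to be tested in the soleus alone. It was not among the genes tested there without libraries over 10 CPM of Alb. The soleus called lower 5 of 12 liver transcripts. Without its libraries over 10 CPM of Alb, 12 of 32 other complement genes tested there were called higher and 1 lower. The same step gave 15 higher and 4 lower of 30 in the tibialis anterior. It gave 14 and 3 of 31 in the gastrocnemius, and 4 and 2 of 31 in the diaphragm. These counts have no share of all genes beside them.

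**Figure D5:**
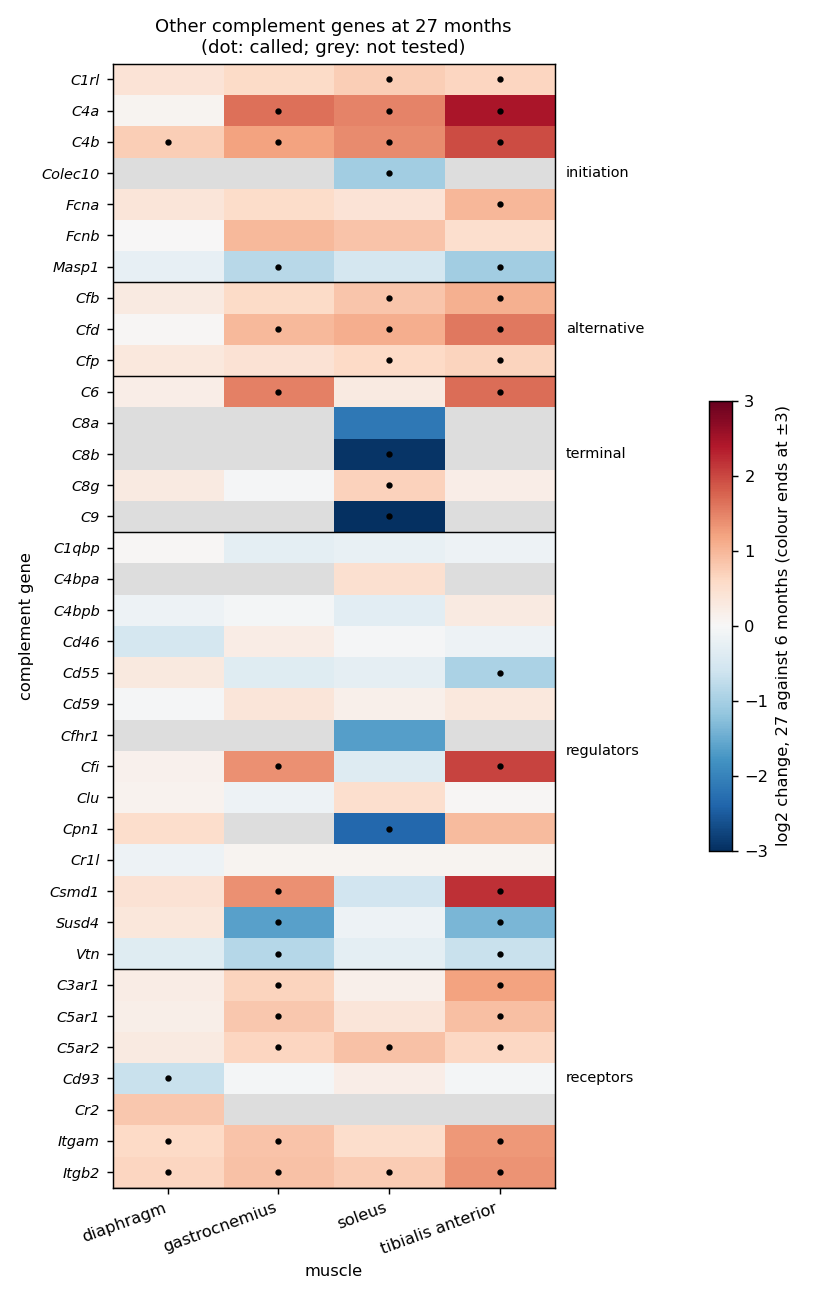
Change from 6 to 27 months of other complement genes (rows, by role) in each muscle (columns), with colour for the log2 change and a dot where a gene was called. Red predominates in the tibialis anterior, where C4a changed by 2.45, and the diaphragm column is pale.

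Markers of the cell types that could carry these transcripts were counted in the same fit. Of 15 macrophage markers tested, 14 were called higher in both the tibialis anterior and the gastrocnemius, 3 for the soleus and 2 for the diaphragm, with median changes of 1.32, 0.94, 0.50 and 0.36. The summed level of the list went from 77.9 to 132 CPM at 6 months to 223 to 462 CPM at 27 months in the tibialis anterior and from 152 to 231 to 278 to 513 CPM in the gastrocnemius. It went from 330 to 623 to 540 to 744 CPM in the soleus, and from 260 to 586 to 412 to 940 CPM in the diaphragm. The defining markers Csf1r, Cd68, Cd163, Mrc1, Adgre1 and Aif1 were above 0 in every library of 6 and 27 months, and the part of macrophage number in the changes of C1q was not tested.

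Of 12 fibroblast markers tested, 2 were called higher in the tibialis anterior, 1 higher and 2 lower in the gastrocnemius, 2 lower in the soleus and 4 lower in the diaphragm, with median changes of 0.17, -0.01, 0.14 and -0.44. The median of Pdgfra, a marker of fibro-adipogenic cells, was 38.3 CPM at 6 and 54.4 CPM at 27 months in the tibialis anterior, and 108 and 82.3 CPM in the diaphragm. Endothelial markers were called lower for 2, 2, 1 and 0 of 9 in the tibialis anterior, gastrocnemius, soleus and diaphragm. Adipocyte markers were called higher for 4 of 7 in each limb muscle and lower for 1 of 7 in the diaphragm.

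In the same order of muscles, T cell markers were called higher for 7 of 7, 6 of 7, 3 of 6 (with 1 lower) and 5 of 9, neutrophil and monocyte markers for 3 of 4, 3 of 4, 1 of 6 and 3 of 6, and interferon response genes for 15, 15, 10 and 0 of 25, with 1 lower in the tibialis anterior and in the diaphragm. Cd3e, the defining T cell transcript, stayed under 1 CPM in every library of 6 and 27 months. Red cell markers were called for 1, 0, 1 and 0 of 5. Muscle identity genes were called lower for 3 of 7 in the tibialis anterior and the gastrocnemius and higher for 3 of 7 in the soleus and 1 of 7 in the diaphragm. The mesothelial list had 2 higher of 2 and 2 of 3 in the tibialis anterior and the gastrocnemius, 2 higher and 1 lower of 4 in the soleus and 1 higher of 6 in the diaphragm. The members called higher in the limb muscles were the keratins Krt8 and Krt18 (5.34 ± 0.68 and 6.95 ± 1.03 in the tibialis anterior), while the median of Msln there was 0.108 CPM at 6 and 0.0704 CPM at 27 months. Liver transcripts were called higher for 1 of 11 in the tibialis anterior, 2 of 6 in the gastrocnemius and 0 of 8 in the diaphragm.

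Likeness to other genes was read from Pearson's r over the 28 means of muscle and age, which come from the same libraries for all genes and are given as a description. C1qc was most like Csf1r, the receptor for colony stimulating factor 1 (r = 0.994), Folr2 (0.991) and F13a1 (0.984), and C1qb most like Cd163, a macrophage scavenger receptor (0.984), Csf1r (0.979) and Pla2g2d (0.976). C1qa had lower values, with Il4r (0.958), Os9 (0.942) and Cfl1 (0.935). C1r was most like the mast cell proteases Mcpt1l1 (0.9798) and Cma1 (0.974) and Tnfrsf11b (0.974), and C1s like Itgam (0.979), Pdpn (0.977) and Itgb2 (0.975). C2 was most like F13a1 (0.975), Cfd (0.974) and Pcdha4 (0.973), C3 like Nr1h4 (0.950), Cacna2d3 (0.943) and Disp1 (0.943), and Serping1 like Plcb2 (0.982), Laptm5 (0.975) and Gmip (0.974).

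Among the 8 transcripts themselves, r was 0.983 between C1qb and C1qc, 0.989 between C1r and C1s and 0.983 between C1s and Serping1. C2 was closer to C1qc (0.964) than to C1s (0.783). The lowest value, 0.146, was that between C1qa and C3.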

How the data were processed

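RNA of 4 muscles of male rats at 7 ages was sequenced as total RNA without ribosomal RNA, and there were 325 libraries. The authors deposited raw counts per gene line, made per the study's methods with the ArrayStudio pipeline on a rat 6.0 genome and an in-house gene model. The version and the use of strand in counting are not given in the sources used here, and GRCr8 served only for names, neighbours and promoters. Each table held 17870 lines and 17315 symbols, and the 494 symbols on more than 1 line were summed. The 8 transcripts had 1 line each.

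Genes were kept by filterByExpr of edgeR 4.0.16 (minimum count 10, minimum total 15) and scaled by TMM. Each age was compared with 6 months in a limma-voom fit (limma 3.58.1, R 4.3.3) over all ages of a muscle, two-sided, with Benjamini-Hochberg adjustment over all genes tested. A fit over all muscles gave the contrasts between muscles and the interactions. Log2 CPM used a prior count of 0.5. A trend needed a BIC gain of 6, and a logistic curve a further 2. Correlations of C3 used log2(CPM + 0.5) and 100000 permutations, two-sided. The fits were tested on simulated counts with known changes.

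Alternatives were edgeR's quasi-likelihood test, DESeq2 1.42.0, other scalings, no filter, quality weights, a replicate block, 1 number series, Bonferroni adjustment (which the study names) and other fold thresholds. Leaving out libraries over 10 CPM of Alb was chosen after seeing the data, as were the mesothelial list and the motifs. The genes described and all lists were chosen with earlier results of these data known. Named besides the 8 genes were, by rule, other complement genes called higher in 3 or more muscles, the largest rise and fall in each muscle, and the 3 genes most like each of the 8. A gene that this rule names is not reported here. Labels do not name the animal of a library, so p-values measure the spread between libraries. Figures were drawn with matplotlib 3.10.9.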

Additional observations from a re-analysis of the deposited data

Results flagged for a closer look

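Differences in the change from 6 to 27 months between a pair of muscles, tested as interactions in limma-voom over all genes, passed both thresholds in 15 of 48 tests. Against the diaphragm, the change in the tibialis anterior was higher by 1.14 ± 0.22 (SE) for C1qa, 1.01 ± 0.22 for C1qb, 0.89 ± 0.19 for C1qc, 0.66 ± 0.14 for C1s, 1.03 ± 0.22 for C2, 2.95 ± 1.00 for C3 (adjusted p = 0.00951) and 0.75 ± 0.14 for Serping1 (adjusted p = 8.41e-07). Against the soleus it was higher by 0.94 ± 0.21 for C1qa, 1.07 ± 0.22 for C1qb, 0.90 ± 0.19 for C1qc, 0.67 ± 0.22 for C2 (adjusted p = 0.00854) and 3.58 ± 1.04 for C3. Against the gastrocnemius it was higher by 0.63 ± 0.23 for C1qb (adjusted p = 0.0268) and 0.68 ± 0.23 for C2 (adjusted p = 0.0178). The change of C1qa in the gastrocnemius was 0.59 ± 0.19 higher than in the diaphragm (adjusted p = 0.00616).

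Without the libraries over 10 CPM of Alb 13 tests were called. The shares of all genes were taken with every library, so this count has no such share beside it. C2 and C3 between the tibialis anterior and the soleus and C1qa between the gastrocnemius and the diaphragm were no longer called, and C1qc between the tibialis anterior and the gastrocnemius was added at 0.59 ± 0.19 (adjusted p = 0.0133). Comparisons with the gastrocnemius cannot be told apart from its own number series. None of 24 combinations of group and transcript with 4 to 10 libraries held a library far from the others by Dixon's test. These groups were those of the gastrocnemius at 6, 21 and 24 months. The larger groups, with all those of the other muscles, were not put to this test.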

How the results depend on the processing

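Of the tests of single transcripts at 27 months under each alternative, 265 kept direction and call, 11 gained a call, 1 lost it (C1qc in the soleus, 0.58 with quality weights) and 3 turned. The turned values were C3 in the diaphragm, 0.16 with quality weights and 0.55 without the libraries over 10 CPM of Alb, and C3 in the soleus, 1.10 without those libraries.

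Transcripts called higher in the diaphragm (0) became 1 with total-count scaling, 4 with no fold threshold and 2 without the Alb libraries. In the soleus (4) they became 7 with total-count scaling, 0 at 2-fold and 7 with no fold threshold, and in the gastrocnemius (7) 1 at 2-fold. The interactions called (15) became 26 with total-count scaling and 5 with Bonferroni adjustment. Genes called in the diaphragm (905), gastrocnemius (2708), soleus (1825) and tibialis anterior (3245) became 248, 1068, 791 and 1470 at 2-fold and 5410, 7373, 6545 and 8725 with no fold threshold, and with Bonferroni adjustment 538 in the diaphragm and 1083 in the soleus.

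Total-count scaling moved the median change of all genes to 0.04, 0.32, 0.16 and 0.34 in these muscles, and the share of calls that were higher from 43.4%, 66%, 61.4% and 62.4% to 51%, 90%, 77.7% and 89.1%. Relative to that median 0, 7, 4 and 7 transcripts were called higher.

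Libraries of the same replicate number deviated together in part. Their median correlation was 0.1999 between the diaphragm and the tibialis anterior (60 of 83 pairs over 0.1, 42 of 83 most like their own number), 0.18 between the soleus and the tibialis anterior (59 and 43 of 84) and 0.13 between the diaphragm and the soleus (46 and 36 of 83). With the gastrocnemius it was 0.0341 to 0.0846. Not every pair was over 0.1, and the labels name no shared animal, so the block was kept as an alternative. With the replicate block 0, 7, 4 and 7 transcripts, 900, 2677, 1837 and 3226 genes, 17 interactions and 31 contrasts at 6 months were called. Groups held 9 or more libraries, so single libraries were not left out in turn. In the gastrocnemius the alternative of 1 number series could not be run as a change, since all its libraries are in 1 series. Trend classes were the same for 32 of 32 with a prior count of 2. The C3 of young limb muscles rests on few counts.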
